A study of Homo sapiens with 6 samples.

Results

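The genes of the proteasome and immunoproteasome were described in MDA-MB-231 cells, a triple-negative breast cancer line, with and without LARP6 overexpression. Members were the protein-coding genes of the count table whose symbol begins with PSMA, PSMB, PSMC, PSMD, PSME, PSMF or PSMG followed by a digit, and 49 of 28675 genes met this rule. The 6 RNA-seq libraries form 2 groups of 3, a no-load control and overexpression of LARP6, which belongs to the La-related RNA-binding proteins. The study asked which RNAs LARP6 binds and regulates in this line. The labels give neither the construct behind the overexpression nor whether replicates were grown separately, so p-values measure only the spread of these 3 libraries per group, which could be technical.

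The proteasome is the cell's main protease for proteins tagged with ubiquitin. Its barrel-shaped core particle is built of rings of alpha subunits (PSMA genes) around rings of beta subunits (PSMB genes), and the beta subunits PSMB5, PSMB6 and PSMB7 carry the active sites. The regulatory particle binds the ubiquitin tag, removes it and threads the protein into the core, with a ring of ATPases (PSMC genes) and a base and lid of other subunits (PSMD genes). Interferon-gamma induces PSMB8, PSMB9 and PSMB10, which take the places of the constitutive active subunits in the immunoproteasome, and the activator subunits PSME1 and PSME2, and these proteins shape the peptides shown on MHC class I. Of the 49 members, PSMC3IP, a meiotic recombination factor, and PSME3IP1, a protein that binds the activator PSME3, are not subunits or assembly factors of the particle.

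Total counts were 29409101 to 33387050 per library. Replicate counts were further apart than sampling alone gives (chi-square per gene 2.06 to 3.62). Each library was used as its own replicate, though this spread does not tell separate cultures from technical replicates. LARP6 was at 44.2, 40.7 and 43.3 CPM (read counts scaled to library size, with TMM) in control libraries 1, 2 and 3 and at 1995, 2198 and 2131 CPM in LARP6 libraries 1, 2 and 3, and every library matched its label. The line's mesenchymal marker VIM averaged 3151 CPM in controls. The line's 6 markers summed to 5621 to 5706 CPM in control libraries and 5805 to 5953 CPM in the LARP6 group. Of 7 luminal and receptor genes, ESR1 was at 0 and PGR at 0.149 CPM in controls. Others of that list were not low, with ERBB2 at 57.2 and KRT18 at 748 CPM. The list summed to 831 to 847 CPM in control and 806 to 835 CPM in LARP6 libraries. The summed levels of leukocyte, fibroblast and endothelial markers were below 8 CPM in every library, among them 4.23 to 5.15 CPM (control) and 4.89 to 5.14 CPM (LARP6) for leukocytes, whose cells are known for high immunoproteasome levels.

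The DNA before the start sites of 4 members is shown. They are PSME1 and PSMG4, the members that fell in the results below, and PSME2 and PSMB10 from among the interferon-inducible genes. The 250 bases upstream of the first start listed in RefSeq on GRCh38.p14 are given 5′ to 3′ on the gene's own strand, in lower case with motif letters in capitals. They lie at chr14:24135944-24136193 on the plus strand for PSME1, chr14:24146611-24146860 on the minus strand for PSME2, chr6:3258697-3258946 on the plus strand for PSMG4 and chr16:67936851-67937100 on the minus strand for PSMB10.
PSME1: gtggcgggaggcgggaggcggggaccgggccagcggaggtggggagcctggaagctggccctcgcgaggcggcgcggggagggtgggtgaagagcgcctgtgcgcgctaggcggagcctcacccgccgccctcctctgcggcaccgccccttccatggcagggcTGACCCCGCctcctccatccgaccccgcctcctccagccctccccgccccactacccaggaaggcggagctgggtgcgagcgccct
PSME2: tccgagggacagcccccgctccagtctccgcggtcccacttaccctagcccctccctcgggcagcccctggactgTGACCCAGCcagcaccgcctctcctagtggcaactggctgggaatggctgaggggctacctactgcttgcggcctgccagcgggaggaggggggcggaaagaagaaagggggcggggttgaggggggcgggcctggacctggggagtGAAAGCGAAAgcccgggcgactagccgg
PSMG4: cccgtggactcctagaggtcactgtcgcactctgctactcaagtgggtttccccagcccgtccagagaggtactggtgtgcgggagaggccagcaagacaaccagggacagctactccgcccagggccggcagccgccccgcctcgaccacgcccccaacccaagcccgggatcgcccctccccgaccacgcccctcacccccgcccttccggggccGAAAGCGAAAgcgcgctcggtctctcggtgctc
PSMB10: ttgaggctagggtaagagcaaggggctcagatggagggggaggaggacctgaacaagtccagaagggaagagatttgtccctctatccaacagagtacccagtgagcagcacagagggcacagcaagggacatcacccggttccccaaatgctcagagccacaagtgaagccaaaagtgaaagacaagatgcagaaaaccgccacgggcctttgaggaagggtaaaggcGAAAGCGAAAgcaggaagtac
The capitals in PSME1 mark TGACNNNGC, the core of the antioxidant response element, with its first base at -86 from the start. PSME2 holds that core at -175 and, at -28, a form of the interferon-stimulated response element, GAAA repeated with a pair of bases of any kind between. PSMG4 and PSMB10 hold the second motif at -33 and -21, and PSME2, PSMG4 and PSMB10 share it as the same letters, GAAAGCGAAA.

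Of the 49 members, 43 had an entry in the RefSeq promoter table. Searched on both strands of the 250 upstream bases, TGACNNNGC was present in 11 of the 43 (25.58%), against 11.03% of 27305 genes. The interferon-stimulated element was present in 5 members (11.63%), PSMA4, PSMB4, PSMB10, PSME2 and PSMG4, against 3.073% of all genes. PSMB8 and PSMB9, also interferon-inducible and not shown above, did not hold it. The gamma-activated site TTCNNNGAA was in 5 members (11.63%) against 6.775%, and the CCAAT box in 19 (44.19%) against 33.04%. The 27305 genes were not matched to the members in gene type, expression or GC content of the promoter. The motifs were searched separately and a base can count for more than 1 of them. PSMB9 starts 488 bases from TAP1, the peptide transporter gene, and the pair are transcribed away from each other. PSME1 and PSME2 start 10416 bases apart on opposite strands.

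Most proteasome mRNAs were abundant and differed little between groups. Of the 47 members with enough counts for the edgeR test, none was called higher, 2 fell (PSME1 and PSMG4, 4.26%) and 45 did not pass the adjusted threshold of 0.05. Over the 16226 genes tested, 6.03% were called, 2.43% higher and 3.6% lower. The share of members called was near that of all genes. All 12 members with an unadjusted p below 0.05 were lower with LARP6 (25.5% of the 47, where 19% of all genes reached that p and 10.3% did so while lower). The groups did not overlap for 13 members (27.7%, all genes 22.3%). Of the 47 members, 11 were lower without overlap (23.4%, all genes 11.7%) and 2 were higher without overlap (all genes 10.6%). The fold change was below 0 for 30 of 47 members (63.8%, all genes 48.8%), with a median log2 fold change of -0.03 against 0.00 over all genes tested. The count below 0 depended on the scaling, being 23 of 47 with library size only and 24 in the limma fits on FPKM. The share of all genes below 0 is not given for those fits. The median of members stayed below that of all genes, at 0.00 against 0.03 with library size only.

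In the test reported here the intervals of the members were also narrow. Log2 fold changes ran from -0.18 in PSMG4 to 0.07 in PSMD10, and the 95% interval lay within 20% of no change for 46 of the 47 tested members and within 10% for 41. PSMA6 was the exception, with an interval of -25.5% to 9.08%, and the highest upper bound was 11.6%, in PSMC3IP. The intervals hold for this scaling and for 3 libraries per group that could be technical. With offsets for each library's trend on GC content and length, some estimates lay outside them. Among these were PSMA5 (-0.10, interval -0.09 to 0.02) and PSMA7 (0.03, interval -0.09 to 0.01). The plot of all tested members shows the intervals of the reported test by role.

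**Figure D1:**
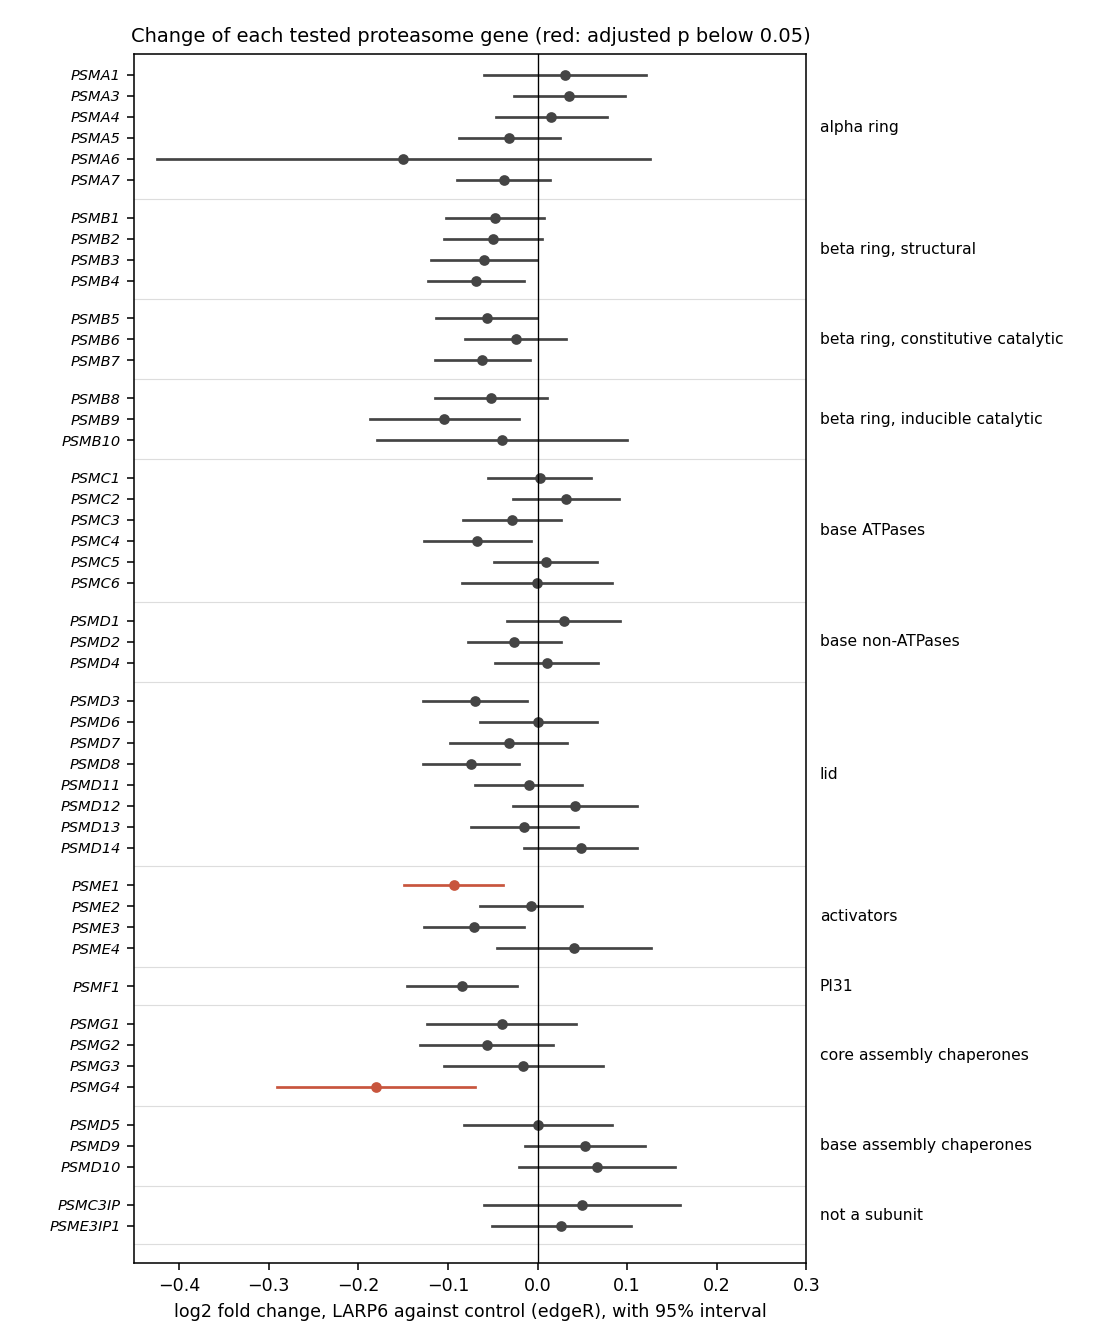
Log2 fold change of each tested member, LARP6 against control (x axis), as a point with its 95% interval, grouped by role (3 libraries per group, edgeR). Red marks PSME1 and PSMG4, the 2 members past the adjusted threshold; all points lie between -0.18 and 0.07, and all 10 PSMB genes lie left of 0.

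PSME1 encodes the alpha subunit of PA28 (11S), the interferon-inducible cap that opens the core without ATP or ubiquitin. It was at 275, 283 and 288 CPM in control libraries 1, 2 and 3 and at 257, 262 and 274 CPM in LARP6 libraries 1, 2 and 3. Every LARP6 library was below every control library, although the gap between the nearest libraries was small. PSME1 (ENSG00000092010.15, chr14:24136158-24138967, plus strand, GENCODE v29 on GRCh38) fell from 282 ± 6.55 CPM under control (SD, n = 3) to 264 ± 8.26 CPM (SD, n = 3). The log2 difference was -0.09 with an SE of 0.03 (adjusted p = 0.0261 by edgeR), or -6.3% (95% interval -9.84% to -2.61%). The call was lost with DESeq2 (adjusted p = 0.0507), with library size as the only scaling (0.12) and with offsets that take out each library's smooth trend on GC content and length (log2 fold change -0.04, adjusted p = 0.42). It was also lost without control library 2 (0.105), control library 3 (0.147), LARP6 library 1 (0.227) or LARP6 library 2 (0.154).

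PSME2, the beta subunit of the same ring, was at 230, 232 and 235 CPM in controls and 229, 226 and 239 CPM with LARP6. The groups overlapped, with the highest and the lowest library both in the LARP6 group. Its log2 fold change was -0.01 (edgeR adjusted p = 0.928), a change of -0.511% with a 95% interval of -4.35% to 3.48%. The difference between PSME1 and PSME2 in their response was not tested.

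PSME3, the subunit of the nuclear PA28 ring, was at 251, 250 and 250 CPM in controls and 237, 241 and 237 CPM with LARP6. The groups did not overlap, but the log2 fold change of -0.07 ± 0.03 (SE) was not called (edgeR adjusted p = 0.123). PSME4, which encodes the large activator PA200, was at 54.5, 59.7 and 54.6 CPM in controls and at 56.9, 59.6 and 57 CPM with LARP6, which overlapped (log2 fold change 0.04, edgeR adjusted p = 0.679). PSMF1 encodes PI31, a regulator first known as an inhibitor of the core. It was at 158, 159 and 159 CPM in controls and at 151, 150 and 148 CPM with LARP6, all of them below the controls. The change of -5.69% in PSMF1 was not called (edgeR adjusted p = 0.085), though it passed with the GC and length offsets (adjusted p = 0.0225).

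PSMG4 encodes a chaperone that pairs with PSMG3 to help assemble the alpha ring. It was at 36.1, 33.8 and 33.3 CPM in control libraries 1, 2 and 3 and at 30.3, 32.5 and 28.4 CPM in LARP6 libraries 1, 2 and 3, with no overlap. PSMG4 (ENSG00000180822.12, chr6:3231403-3303373, plus strand) fell from 34.4 ± 1.5 CPM under control (SD, n = 3) to 30.4 ± 2.07 CPM (SD, n = 3). The log2 difference was -0.18 with an SE of 0.06 (adjusted p = 0.033 by edgeR), or -11.7% (95% interval -18.2% to -4.71%). The call was lost with DESeq2 (adjusted p = 0.0817), with library size only (0.0969), with the offsets (0.0663), and without control library 1 (0.178), control library 2 (0.064), LARP6 library 1 (0.119) or LARP6 library 3 (0.208). Its exons share 13.3% of their bases with SLC22A23 and 1.67% with TUBB2B, both on the opposite strand, which had 106 to 150 and 87 to 113 reads per library beside 900 to 1101 on PSMG4. The RefSeq start used above lies inside the annotated span. Whether the counting kept strands apart is not given in the sources used here.

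None of the other core assembly chaperones was called. PSMG2, the partner of PSMG1 in an early assembly step, had a log2 fold change of -0.06 (edgeR adjusted p = 0.433), PSMG1 of -0.04 and PSMG3 of -0.02, and all 4 core chaperones were below 0 with a median of -0.05 (with the offsets PSMG3 turned to 0.06). The base assembly chaperones PSMD5, PSMD9 and PSMD10 were all above 0 with a median of 0.05 (with the offsets PSMD5 turned to -0.05), and none was called. PSMD9 was at 110, 113 and 110 CPM in controls and at 115, 114 and 117 CPM with LARP6, without overlap (log2 fold change 0.05, edgeR adjusted p = 0.414). PSMD10, known as gankyrin, had the highest estimate of all members at 0.07 ± 0.04 (log2, SE, edgeR adjusted p = 0.437).

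None of the 10 PSMB genes was called, and the estimate was below 0 in all 10 (in 9 of 10 with library size only and in the fits on FPKM, and in 8 of 10 with the offsets). Among the constitutive active subunits, PSMB5, with the chymotrypsin-like site, was at 228, 230 and 234 CPM in controls and at 219, 220 and 226 CPM with LARP6, without overlap (log2 fold change -0.06, edgeR adjusted p = 0.26). PSMB7, with the trypsin-like site, was at 360, 367 and 370 CPM against 346, 347 and 358 CPM, also without overlap (-0.06, adjusted p = 0.175). PSMB6, with the caspase-like site, was at 248, 258 and 263 CPM against 246, 253 and 256 CPM, and its groups overlapped (-0.02, adjusted p = 0.703). PSMB4, a structural beta subunit, was at 360, 364 and 373 CPM against 338, 352 and 356 CPM, all lower, at an adjusted p of 0.121 by edgeR. The structural subunits PSMB2 and PSMB3 had log2 fold changes of -0.05 (edgeR adjusted p = 0.319) and -0.06 (0.255), and PSMB1 of -0.05 (0.36). Among the alternatives run, PSMB2 passed with the offsets (0.0189) and PSMB1 and PSMB3 in none.

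The inducible subunits were likewise all below 0 and none was called. PSMB8, the counterpart of PSMB5, was at 152, 161 and 154 CPM in controls and at 144, 150 and 156 CPM with LARP6. Its groups overlapped, and the change of -3.53% had a 95% interval of -7.64% to 0.761% (edgeR adjusted p = 0.387). PSMB9, the counterpart of PSMB6, was at 63, 60.9 and 67.5 CPM in controls and at 59.3, 58 and 60.9 CPM with LARP6. The lowest control and the highest LARP6 library of PSMB9 were nearly equal, and the change of -6.96% (95% interval -12.2% to -1.41%) was not called (edgeR adjusted p = 0.134). PSMB10, the counterpart of PSMB7, was at 19.2, 17.9 and 20 CPM against 18.3, 18.2 and 19.1 CPM, with overlap, and its interval of -11.7% to 7.16% was the wider for its lower counts (edgeR adjusted p = 0.82). The plot of the called members and the catalytic pairs shows each library.

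**Figure D2:**
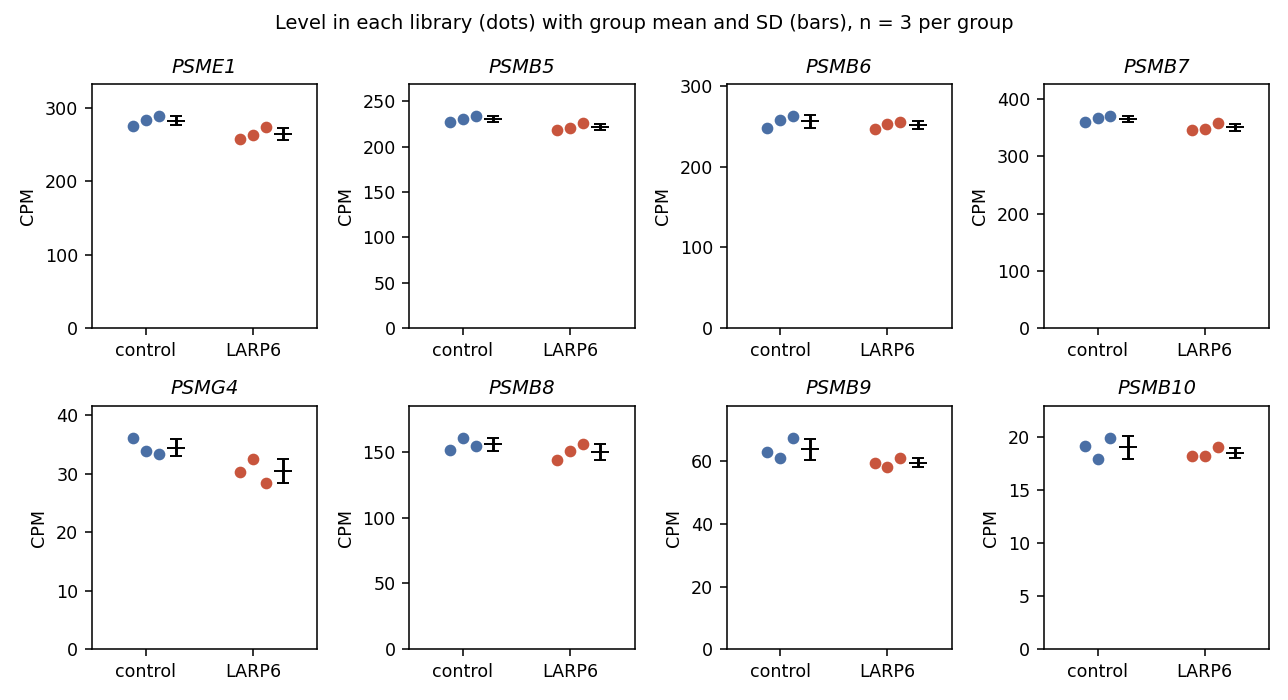
Level in CPM (y axis, from 0) of PSME1, PSMG4 and the 3 catalytic pairs in each library, with control in blue and LARP6 in red. Dots are libraries and bars are group means with SD (n = 3); PSME1 runs from 275 to 288 CPM in controls and from 257 to 274 CPM with LARP6, while PSMB8 and PSMB10 overlap.

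The ratio of each inducible subunit to the constitutive subunit it replaces differed by -0.08 to 0.02 on the log2 scale (LARP6 minus control). In the authors' FPKM values, which are scaled per length, PSMB8 was at 0.3003 ± 0.00912 of PSMB5 in controls and 0.301 ± 0.00781 with LARP6 (SD, n = 3 each; two-sided exact permutation p = 1). PSMB9 to PSMB6 was 0.108 ± 0.00483 and 0.102 ± 0.00263 (exact permutation p = 0.3, adjusted over the 3 pairs 0.9). PSMB10 to PSMB7 was 0.0573 ± 0.00317 and 0.0582 ± 0.000481 (exact permutation p = 1). With 3 libraries against 3 the smallest p this test can give is 0.1, so it could not have passed 0.05. All 3 inducible mRNAs were below their counterparts in both groups, with PSMB8 the closest.

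The size of these ratios depended on the length used. Per kilobase of coding sequence, with lengths from GENCODE v29, the control ratios were 0.612 for PSMB8 to PSMB5, 0.279 for PSMB9 to PSMB6 and 0.0529 for PSMB10 to PSMB7. The authors' FPKM and counts together implied a length for each gene. It was 1.13 times that of all annotated exons at the median, with 39 of 47 members within 10% of that median. The multiple ran from 0.931 to 3.45. Of the catalytic pairs, PSMB8 (1.32), PSMB5 (0.994) and PSMB10 (0.994) lay outside this 10%, so their FPKM ratios do not rest on annotated exon length alone. The reason for these differences was not tested. Annotated exons were 1.73 to 19 times longer than the coding sequence, with the highest value in PSMG4, so FPKM placed genes with long noncoding exons low. Reads per coding length count reads in untranslated exons too and place such genes high.

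For 3 alpha subunits (PSMA1, PSMA2 and PSMA6) and for PSMB10, genes chosen here after their values were seen, most reads were counted on another annotated gene. PSMA2, a subunit that every core particle holds, had 8, 7 and 8 reads in controls and 12, 13 and 4 reads with LARP6, too few to be tested. The readthrough gene RP11-111K18.1, annotated on the same strand across PSMA2 and its neighbour C7orf25, covers 100% of the coding sequence of PSMA2 and had 6048, 5664 and 6542 reads in controls and 5946, 6278 and 6304 with LARP6. PSMA6 had 139, 121 and 157 reads in controls and 128, 123 and 121 with LARP6, beside 7785, 7679 and 8897 and 7321, 7697 and 8197 on the readthrough gene RP11-561B11.2, which covers 89.96% of its coding sequence. The few reads of PSMA6 are also behind its wide interval, given above.

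PSMA1 and PSMB10 shared reads in the same way, less completely. PSMA1 had 1437 to 1626 reads per library and RP11-140L24.4, which also shares exons with COPB1 and covers 88.64% of the coding sequence of PSMA1, had 4916 to 5534. PSMB10 had 529 to 656 reads and CTC-479C5.12, which extends over CTRL and covers 59.95% of its coding sequence, had 926 to 1144. The readthrough gene held 77.6% of the summed reads in controls and 76.9% with LARP6 for PSMA1, 99.9% and 99.8% for PSMA2, 98.3% and 98.4% for PSMA6, and 64.5% and 63.7% for PSMB10. These shares were nearly the same in both groups. From which transcript the reads on shared exons came cannot be told apart in these tables.

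**Figure D3:**
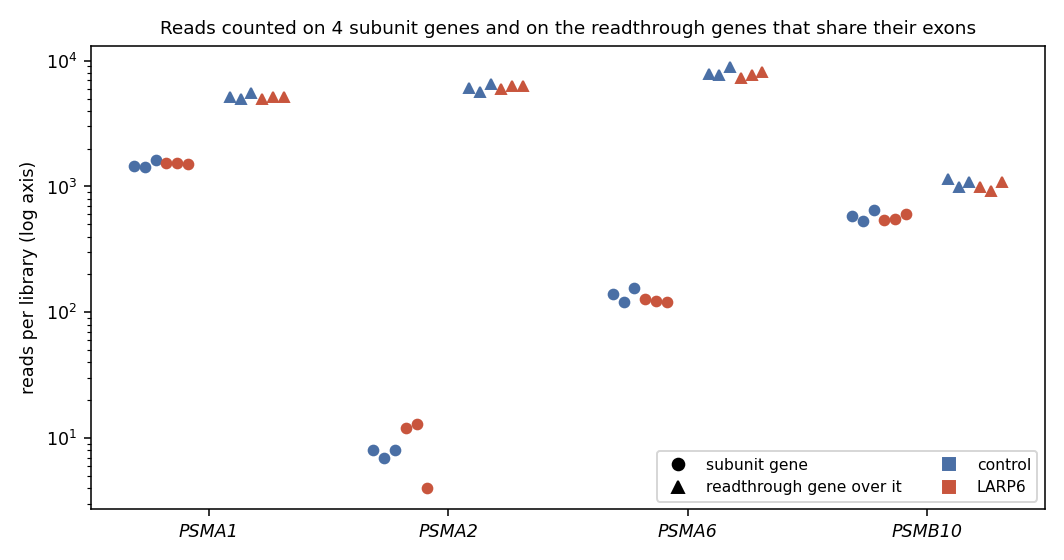
Reads per library (y axis, log scale) counted on PSMA1, PSMA2, PSMA6 and PSMB10 (circles) and on the readthrough gene that shares their exons (triangles), with control in blue and LARP6 in red. PSMA2 has 4 to 13 reads per library and the gene over it 5664 to 6542.

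With the readthrough reads added, as an alternative chosen after seeing the data, none of these genes was called. PSMA1, PSMA2 and PSMA6 then stood at 268, 280 and 352 CPM per coding kilobase in controls, within the range of the other alpha subunits, while PSMB10, at 65.6, was still the lowest of the PSMB genes. PSMA1 then had 217 CPM in controls and 216 CPM with LARP6 (log2 fold change -0.01, edgeR adjusted p = 0.908). PSMA2 had 197 and 202 CPM (0.04, adjusted p = 0.567), PSMA6 had 267 and 256 CPM (-0.06, adjusted p = 0.238), and PSMB10 had 53.7 and 51.2 CPM (-0.07, adjusted p = 0.416). The ratio of PSMB10 to PSMB7 per coding kilobase was then 0.149 in controls, in place of 0.0529. Some of the added reads may belong to C7orf25, KIAA0391, COPB1 or CTRL, so these sums are upper values.

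The remaining alpha subunits were not called. PSMA7, the most abundant member per length, was at 498, 505 and 520 CPM in controls and at 491, 492 and 501 CPM with LARP6, with overlap (log2 fold change -0.04, edgeR adjusted p = 0.459). PSMA3, PSMA4 and PSMA5 had log2 fold changes between -0.03 and 0.04. PSMA5, at -0.03 in the test reported here, passed with the GC and length offsets (-0.10, adjusted p = 0.0175). PSMA8, the testis form of PSMA7, had 0 reads in all controls and 1 read in LARP6 library 1.

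In the regulatory particle none of 17 members was called, 9 were below 0 and 8 above, and the median log2 fold change was 0.00. The ATPases split evenly, with 3 of 6 below 0. PSMC4 was at 174, 173 and 176 CPM in controls and at 164, 166 and 170 CPM with LARP6, without overlap (log2 fold change -0.07, edgeR adjusted p = 0.193). PSMC3 had the highest FPKM of the ATPases (122 in both groups) and PSMC6 the lowest (10.9 in controls and 11.1 with LARP6), and their log2 fold changes were -0.03 and -0.00. PSMC1, PSMC2 and PSMC5 lay between 0.00 and 0.03. PSMC1 has 75.8% of its exon bases in common with NRDE2 on the opposite strand, which had 675 to 774 reads per library beside 6364 to 7006 on PSMC1.

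Of the base subunits without ATPase activity, PSMD2, a large scaffold that receives ubiquitin-like domains, was at 513, 528 and 535 CPM in controls and at 509, 508 and 531 CPM with LARP6 (log2 fold change -0.03, edgeR adjusted p = 0.65). PSMD1, the other large scaffold, had a log2 fold change of 0.03 (adjusted p = 0.681). The lid subunit nearest to the threshold was PSMD8, which was at 354, 359 and 360 CPM in controls and at 335, 338 and 346 CPM with LARP6. The groups of PSMD8 did not overlap (log2 fold change -0.07 ± 0.03, SE, edgeR adjusted p = 0.0809), and it passed without LARP6 library 3 (0.0477) but was at -0.02 with the offsets (0.757). PSMD14, the deubiquitinase of the lid, lay the other way at 142, 141 and 135 CPM against 144, 145 and 144 CPM, without overlap (0.05, adjusted p = 0.433), but turned to -0.06 with the offsets. PSMD3, another lid subunit, was at 211, 212 and 223 CPM against 202, 206 and 207 CPM, without overlap (-0.07, adjusted p = 0.152). PSMD6 had the lowest FPKM of the lid and was at 123 CPM in both groups. The other lid subunits, PSMD7, PSMD11, PSMD12 and PSMD13, lay between -0.03 and 0.04 on the log2 scale, and PSMD4, the ubiquitin receptor of the base, at 0.01.

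Summed over its genes, the core particle was at 3397, 3448 and 3518 CPM in controls and at 3312, 3366 and 3389 CPM with LARP6. Every LARP6 sum was below every control sum, and the means differed by -2.85%. As a share of all counts without TMM scaling the difference was -1.08% and the groups overlapped, and by summed FPKM it was -1.43%, also with overlap. The regulatory particle summed to 3535 ± 16.03 CPM in controls and 3496 ± 44.6 CPM with LARP6 (SD, n = 3 each), a difference of -1.12%, which turned to 0.669% when taken as a share of all counts without TMM scaling. The inducible active subunits together were at 238 ± 4.16 and 228 ± 7.37 CPM and the constitutive ones at 852 ± 15.7 and 824 ± 14.3 CPM (SD, n = 3 each). All 49 members took 0.846% of counts in controls and 0.843% with LARP6. The sums of the core, the inducible subunits and all 49 members leave out reads counted on readthrough genes. In controls those over PSMA1, PSMA2, PSMA6 and PSMB10 averaged 168, 197, 262 and 34.7 CPM. No test was run on sums. In these bulk libraries fewer cells of a kind and less RNA per cell cannot be told apart.

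Levels per coding length differed far more between roles than between groups. In controls the beta subunits outside the inducible set lay close together, from 398 to 536 CPM per coding kilobase for the structural ones, a 1.35-fold range, and from 264 to 440 for the constitutive active ones. The alpha subunits ranged from 194 to 682 with readthrough reads added, and from 0.353 without them. The ATPases ranged from 77.3 to 241, with a median of 151, and the lid from 87.8 to 341, with a median of 138. These medians were below those of the structural beta (437) and alpha (280, readthrough added) subunits. PSME1 (341), PSME2 (324) and PSME3 (286) were at the level of core subunits, whereas PSME4 was at 10.2 CPM per coding kilobase. The assembly chaperones were lower than the core, with medians of 91 for the core set and 77.6 for the base set.

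**Figure D4:**
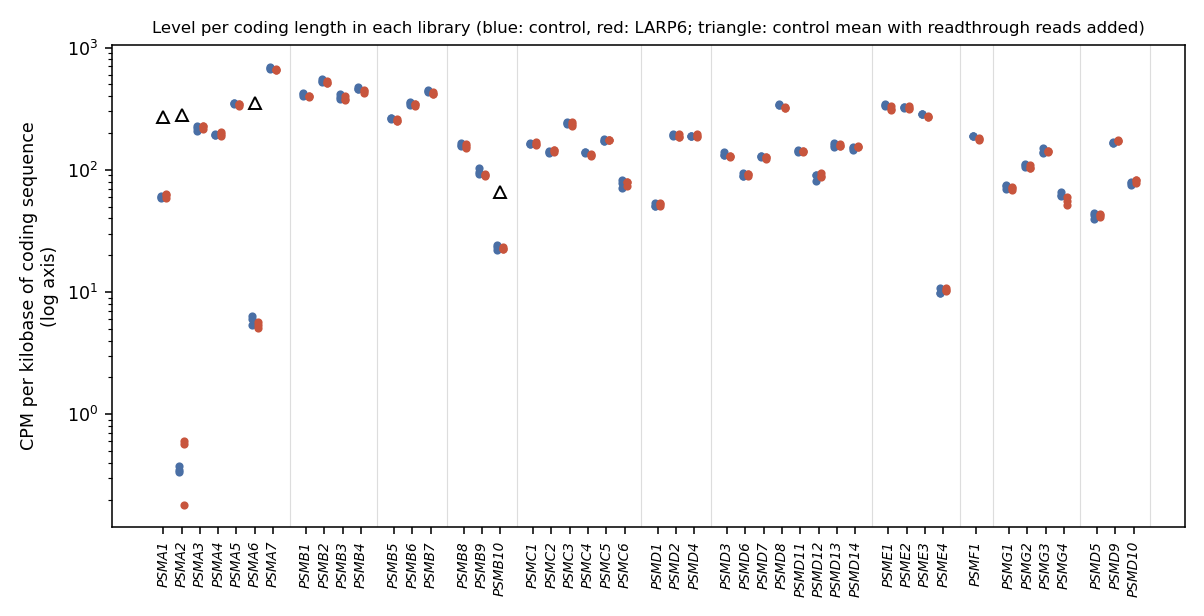
CPM per kilobase of coding sequence (y axis, log scale) of members with reads in controls, by role. Control libraries are in blue and LARP6 libraries in red. PSMC3IP and PSME3IP1, which are not subunits, are not drawn. Triangles give the control mean with readthrough reads added, which moves PSMA2 from 0.353 to 280. The 2 colours of a gene stay close on this scale. They do not overlap for 13 of the 45 tested genes drawn (28.9%, all genes 22.3%).

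The members that are not parts of the particle were not called. PSMC3IP had a log2 fold change of 0.05 (edgeR adjusted p = 0.694) and PSME3IP1 of 0.03 (adjusted p = 0.779).

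Genes around the proteasome were counted from written lists. Of 16 partners and regulators outside the name rule, 1 rose and none fell, where 2.43% of all genes tested were called higher and 3.6% lower. The gene that rose was ZFAND5, which encodes a zinc finger activator of the proteasome. It was at 142 ± 1.18 CPM in controls and 154 ± 2.65 CPM with LARP6 (SD, n = 3 each). The log2 difference was 0.12 with an SE of 0.03 (adjusted p = 0.0113 by edgeR). ZFAND5 was not called without LARP6 library 1 (0.115) or with the offsets (0.05, adjusted p = 0.489). The maturation factor gene POMP (-0.03, edgeR adjusted p = 0.609), the ubiquitin receptor gene ADRM1 (-0.07, 0.122) and NFE2L1, which encodes the transcription factor that restores proteasome genes when the particle is inhibited (-0.05, 0.307), were not called.

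Of 16 ubiquitin, E1 and shuttle factor genes, 5 fell and none rose, where 3.6% of all genes tested were called lower and 2.43% higher, and the list's median log2 fold change was -0.02. UBA1, the main ubiquitin-activating enzyme, fell by 0.14 on the log2 scale (SE 0.03), from 370 to 335 CPM (edgeR adjusted p = 6.4e-05). The polyubiquitin gene UBB fell by 0.09 (adjusted p = 0.0145) and BAG6, a chaperone gene for misplaced membrane proteins, by 0.09 (0.0182). UBA1 kept its call without each library in turn. UBB lost it without control libraries 2 (0.0762) or 3 (0.0668) or LARP6 libraries 1 (0.0863) or 2 (0.125), and BAG6 without control libraries 1 (0.0779) or 2 (0.071) or LARP6 libraries 1 (0.154) or 2 (0.109). UBB and BAG6 also lost it with the offsets (0.189 and 0.312) and with library size only (0.0593 and 0.0894).

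Peptides cut by the proteasome are loaded on MHC class I, and 5 of 16 genes of class I peptide loading fell while none rose (median log2 fold change -0.03; of all genes tested, 3.6% were called lower and 2.43% higher). TAPBP, the loading factor tapasin, fell from 479 to 425 CPM (-0.17 ± 0.03, SE, edgeR adjusted p = 3.53e-07). HLA-B fell from 1005 to 887 CPM (-0.18, adjusted p = 6.44e-07) and HLA-C from 569 to 516 CPM (-0.14, 0.000131). TAP1, the divergent neighbour of PSMB9, fell by 0.10 (0.0334), and lost its call with DESeq2 (0.0519), with library size only (0.136), with the offsets (0.361) and without control libraries 2 (0.0849) or 3 (0.158) or LARP6 libraries 1 (0.227) or 2 (0.132). HLA-C lost its call with the offsets (0.0817). Reads of HLA-B and HLA-C can be shared between near-identical copies, so their counts are uncertain. PSMB9 itself, at -0.10, was not called.

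Of 15 genes of the interferon-gamma pathway, 1 fell and none rose, where 3.6% of all genes tested were called lower and 2.43% higher. The gene that fell was GBP2, a guanylate-binding protein gene. It was at 60.5 ± 0.326 CPM in controls and 52.6 ± 2.69 CPM with LARP6 (SD, n = 3 each). The log2 fold change was -0.20 ± 0.04 (SE, edgeR adjusted p = 0.000673). IRF1, a transcription factor gene that drives the inducible subunits, was not called (0.01, adjusted p = 0.88), and the list's median was 0.01. GBP2, like all genes called above except LARP6, was not called in the limma fits on FPKM (adjusted p 0.124 to 0.311).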

How the data were processed

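RNA was measured in 6 mRNA libraries of MDA-MB-231 cells, 3 per group by the titles. The authors deposited whole-number read counts per gene and FPKM values, which are scaled by gene length and library size, in 2 tables. The submitters' processing notes name HISAT2, DESeq2 and GRCh38, and the labels' protocols describe a stranded kit. The read counter, strand option and gene annotation were not given in the sources used here.

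Counts went unchanged into edgeR 4.0.16 (R 4.3.3), over 16226 genes kept by its expression filter, with TMM scaling, the robust quasi-likelihood test and Benjamini-Hochberg adjustment at 0.05. The script was tested on simulated data. CPM were computed from TMM-scaled library sizes, and 95% intervals from the SE. Libraries held 29409101 to 33387050 counts. The common coefficient of variation that edgeR estimated beyond sampling noise was 3.23%. Exon overlaps, coding lengths and GC content came from GENCODE v29 (97% of identifiers matched), and promoters from RefSeq. Protein identity of the catalytic pairs was planned and not run.

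Members and lists were chosen with earlier results of these data known. Named by rule were members past the threshold, all catalytic subunits, activators and PSMF1, per role the members with the highest and lowest FPKM and the smallest p, members not tested or not subunits, and up to 4 called genes per related list. Some genes of the related lists are counted but not reported by name here. Named outside this rule, after their values were seen, were PSMA1, PSMA3 to PSMA6, PSMB1, PSMC1, PSMC2, PSMC5, PSMD3 to PSMD5 and PSMD7. So were PSMD11 to PSMD14, PSMG1, PSMG3, BAG6, TAP1, uncalled related genes and readthrough genes. Alternatives used other scalings, filters, DESeq2 1.42.0, limma 3.58.1 (voom, or FPKM on a log2 scale with 1 or 0.1 added), a replicate block, GC and length offsets and each library left out.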

Additional observations from a re-analysis of the deposited data

How the results depend on the processing

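Across 20 alternatives no member was called higher. The count of members called lower, 2 in the test reported, was 2 with RLE or upper-quartile scaling, with LARP6 left out of the counts, with either other filter, with limma-voom and with readthrough reads added. It was 0 with library size only, with DESeq2 and with limma on log2(FPKM + 1), on log2(FPKM + 0.1) and on log2(FPKM + 1) with no filter. It was 3 with the GC and length offsets (PSMA5, PSMB2 and PSMF1) and 0 to 2 when 1 library was left out. Over all genes 979 were called, 584 of them lower. With library size only 687 were higher and 303 lower, against 395 and 584, and the median log2 fold change moved from 0.00 to 0.03 over all genes and from -0.03 to 0.00 over members. DESeq2 called 617 genes and the offsets 562, 350 of them lower. The FPKM fits called 90 (53 lower), 92 (54 lower) and, with no filter, 3 (2 lower). Leaving out 1 library gave 456 to 1040 calls, 281 to 642 of them lower.

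A fit with the replicate number as a block called 6 members lower (PSMB4, PSMD8, PSME1, PSME3, PSMF1 and PSMG4) and 1345 genes in all. Deviations of same-numbered libraries correlated at 0.0765, 0.0419 and 0.209. Control library 3 and LARP6 library 3 correlated at -0.131 to -0.091 with the differently numbered libraries of the other group. Control library 2 correlated better with LARP6 library 1 (0.0692) than with its own number. The labels tie the numbers to no shared source, so the numbers were not taken to pair the libraries. Whether the libraries numbered 3 share a source was not tested. The control ratios per coding kilobase were 0.612, 0.279 and 0.0529 in place of 0.3003, 0.108 and 0.0573 by FPKM, and 0.149 for PSMB10 with readthrough reads added. No called value changed sign. The causes were not tested, beyond fewer libraries or genes where these were left out.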

Other observations

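PSMA3-AS1, a noncoding RNA gene next to PSMA3 on the opposite strand, was chosen after its values were seen. It was at 13.9, 11.9 and 13.0 CPM in control libraries 1, 2 and 3 and at 17.8, 16.4 and 17.9 CPM in LARP6 libraries 1, 2 and 3. Every LARP6 library was above every control library, and PSMA3-AS1 rose by 0.42 ± 0.08 on the log2 scale (SE, edgeR adjusted p = 4.07e-05), a change of 34.1% with a 95% interval of 20.5% to 49.3%. It kept its call without each library in turn and lost it in the fits on FPKM (adjusted p = 0.064 with 1 added, 0.0625 with 0.1 added and 0.211 with no filter). PSMA3 itself was at 175, 167 and 159 CPM in controls and at 175, 174 and 165 CPM in LARP6 libraries, with overlap (log2 fold change 0.04, edgeR adjusted p = 0.593). No exon of PSMA3-AS1 overlaps an exon of PSMA3 in GENCODE v29. The antisense genes PSMB8-AS1 (0.01, adjusted p = 0.967) and PSMG3-AS1 (0.18, adjusted p = 0.53) were not called.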
